A study of Rattus norvegicus with 9 samples.

Results

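The genes of lipogenesis and cholesterol synthesis described here are 40 genes, listed by name from the known pathways of fatty acid, triglyceride and sterol synthesis, of which 39 have a line among the 32883 genes of the deposited expression table. Mlxipl, which encodes the glucose-responsive factor ChREBP, was not analysed here. All 39 genes passed the filter on low counts in every comparison.

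Liver mRNA was sequenced from 9 male Sprague-Dawley rats, with 1 library per rat and 3 rats in each of 3 groups. The normal control rats (N1, N3 and N12) received no carcinogen. The DEN model rats (M13, M17 and M24) were injected intraperitoneally each week with 0.01% diethylnitrosamine (DEN), a liver carcinogen used in rats as a model of fibrosis, cirrhosis and hepatocellular carcinoma, over a course of up to 16 weeks. The PZH administration rats (G27, G28 and G42) had the same DEN injections and were also given Pien-Tze-Huang (PZH), a Chinese patent medicine. The treatment tag of the M rats also reads PZH, and they were taken as the DEN model group from their titles and the study's design. The PZH dose of the G rats, the week at which each rat was killed and whether a piece of liver held tumour are not given in the sources used here, so a difference between groups in any of these cannot be told apart from the treatment. All rats had been fasted before they were killed, a state in which hepatic lipogenesis is low.

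The liver makes fatty acids from citrate that leaves the mitochondria: ATP citrate lyase releases acetyl-CoA, acetyl-CoA carboxylase turns it into malonyl-CoA and fatty acid synthase joins these units into palmitate, which elongases and desaturases then modify before it is built into triglycerides. Cholesterol is made from acetyl-CoA by way of mevalonate, isoprenoid units and squalene, which is closed into lanosterol and trimmed in the endoplasmic reticulum. Both pathways are controlled by the sterol regulatory element-binding proteins: the Srebf1 product acts mainly on fatty acid genes and the Srebf2 product mainly on cholesterol genes, and the Insig proteins hold their precursors in the endoplasmic reticulum when sterols are plentiful.

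The libraries held 14922973 to 27161496 counts, G27 being the deepest. Levels are CPM, a gene's share of the library's counts, scaled by TMM, a method that sets the bulk of genes equal between rats. The TMM factors differed by group, at 0.731 to 0.799 in the normal control, 1.21 to 1.58 in the DEN model and 0.863 to 0.941 in the PZH administration rats. Scaling by library totals instead shifted the median fold change over all genes, in log2 units, by 0.87 for DEN model minus normal control, by -0.67 for PZH administration minus DEN model and by 0.23 for PZH administration minus normal control, so every change below is relative to the median gene. Spearman correlations over the genes that passed the filter on low counts were 0.948 to 0.982 between rats of a group and 0.805 to 0.965 between groups. M17 stood nearest to the normal control rats among the DEN model rats (rho 0.884 to 0.890 against 0.805 to 0.828 for M13 and M24). The labels do not say how the rats were housed or processed together, so p-values rest only on the spread between rats within the groups compared.

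The stretches of DNA just upstream of 5 genes are printed first because these genes had the lowest fold changes in DEN model liver among the 39. RefSeq start sites of the rat assembly GRCr8 were found for 30 of the 39 genes. Each sequence is the 250 bases before the start site, read 5′ to 3′ along the gene's strand. Capitals mark CCAAT, the site of the factor NF-Y, in either orientation (ATTGG on the opposite strand), and CACGTG, an E-box.
Insig1 (chr4:8057770-8058019, GRCr8, minus strand): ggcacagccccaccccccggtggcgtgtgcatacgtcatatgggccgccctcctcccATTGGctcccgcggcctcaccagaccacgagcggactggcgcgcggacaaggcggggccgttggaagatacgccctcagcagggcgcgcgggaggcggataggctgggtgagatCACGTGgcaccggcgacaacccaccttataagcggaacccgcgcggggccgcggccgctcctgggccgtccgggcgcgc
Lpin1 (chr6:45108943-45109192, GRCr8, minus strand): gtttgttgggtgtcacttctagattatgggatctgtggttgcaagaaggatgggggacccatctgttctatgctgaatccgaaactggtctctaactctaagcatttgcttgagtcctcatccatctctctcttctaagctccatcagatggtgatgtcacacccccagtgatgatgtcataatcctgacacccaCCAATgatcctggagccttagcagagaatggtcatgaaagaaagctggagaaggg
Fads2 (chr1:216172034-216172283, GRCr8, minus strand): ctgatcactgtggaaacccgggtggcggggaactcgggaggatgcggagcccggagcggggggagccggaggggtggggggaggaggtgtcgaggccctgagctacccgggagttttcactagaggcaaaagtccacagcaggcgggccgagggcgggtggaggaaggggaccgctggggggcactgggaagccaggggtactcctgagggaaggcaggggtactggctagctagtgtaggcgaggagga
Tm7sf2 (chr1:212789542-212789791, GRCr8, minus strand): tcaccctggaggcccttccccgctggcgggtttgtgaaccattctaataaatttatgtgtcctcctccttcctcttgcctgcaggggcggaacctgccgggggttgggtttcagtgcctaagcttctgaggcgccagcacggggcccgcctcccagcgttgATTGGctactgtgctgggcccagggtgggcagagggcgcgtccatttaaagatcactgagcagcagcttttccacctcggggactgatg
Elovl5 (chr8:87670914-87671163, GRCr8, plus strand): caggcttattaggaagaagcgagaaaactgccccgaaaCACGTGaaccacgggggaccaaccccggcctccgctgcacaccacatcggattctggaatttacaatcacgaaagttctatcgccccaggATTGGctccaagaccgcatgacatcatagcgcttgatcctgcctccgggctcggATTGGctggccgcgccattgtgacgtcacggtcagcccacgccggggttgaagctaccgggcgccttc

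Windows from 250 bases before to 50 bases after the start were searched on both strands for 3 short patterns. CCAAT was present in 23 of the 30 genes (76.7%), against 39.6% of the 27457 rat genes with a window, and in 17 (56.7% against 17.3%) it lay between 120 and 40 bases before the start, limits chosen after the positions were seen. CACGTG was present in 3 genes, Insig1 at -79, Sc5d at -161 and Elovl5 at -212, and in 7.08% of all genes. TCACNCCAC, a strict form of the sterol regulatory element, was in none of the 30 and in 1.25% of all genes, which says only that these letters are not in these windows. No pattern contains another, though TCACNCCAC and CACGTG can share the letters CAC. Among the sequences above, Insig1 had both patterns, Elovl5 had CCAAT at -122 and -68 on the opposite strand, Tm7sf2 and Lpin1 each had 1 CCAAT upstream, and Fads2 had none of the patterns. A match is a string of letters and not a measured binding site.

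**Figure D1:**
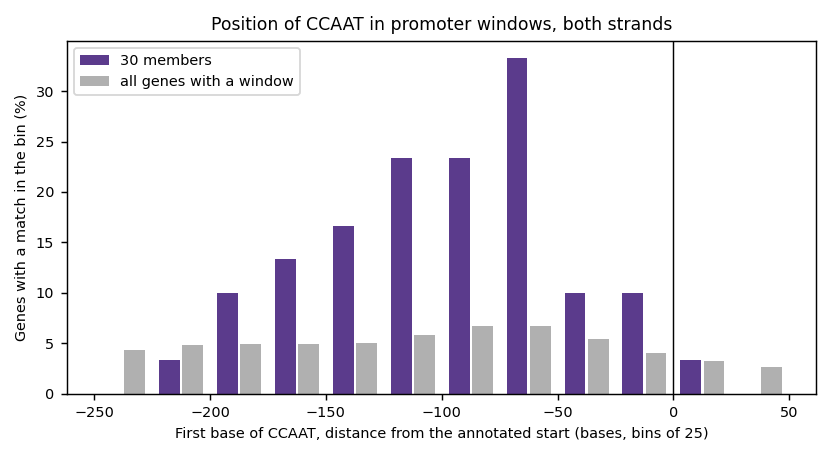
Share of genes (%) whose promoter window holds CCAAT in each bin of 25 bases, on either strand, for the 30 lipogenesis and cholesterol synthesis genes (purple) and for all genes with a window (grey), by distance from the annotated start. The bars of the 30 genes are highest, at 33.3%, in the bin that starts at -75, while those of all genes range from 2.62 to 6.72%.

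Lipid synthesis genes were mostly lower in DEN model liver than in normal control liver. Of the 39 genes, 26 fell and 2 rose at an adjusted p below 0.05 (the quasi-likelihood test of edgeR, Benjamini-Hochberg adjustment across every gene tested), and 11 did not pass. Of all 14255 genes tested 45.8% were called, 20.5% lower and 25.3% higher, so calls were common and the 71.8% called here stood above a high background. The median log2 fold change was -1.28 against 0.029 over all genes, and it ran from -3.77 for Insig1 to 3.40 for Elovl6. The 3 DEN model rats did not overlap the 3 normal control rats in 30 of the 39 genes (76.9%), against 58.8% of all genes. With an absolute log2 fold change above 2 and P under 0.001, the study's own thresholds, 11 genes were lower and 1 was higher, against 12.3% of all genes called (3.49% lower and 8.81% higher).

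The direction of the smaller changes depended on the scaling. With library totals 18 of the 26 genes stayed lower, 15 of the 39 fold changes were above 0 instead of 2, and Dhcr7 and Srebf2 joined Me1 and Elovl6 as higher. Agpat2, Dgat1, Fdft1, Idi1, Msmo1, Sqle, Srebf1 and Stard4 lost their call in this way. Leaving out each rat in turn gave 21 to 28 genes lower and 2 higher. Idi1 lost its call without M13, M17, N3 or N12, Sqle without M13, M17, N1 or N3, Dgat1 without M13, M24, N1 or N12, and Msmo1 and Scd without M13 or N3. The other 21 genes kept their call throughout.

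**Figure D2:**
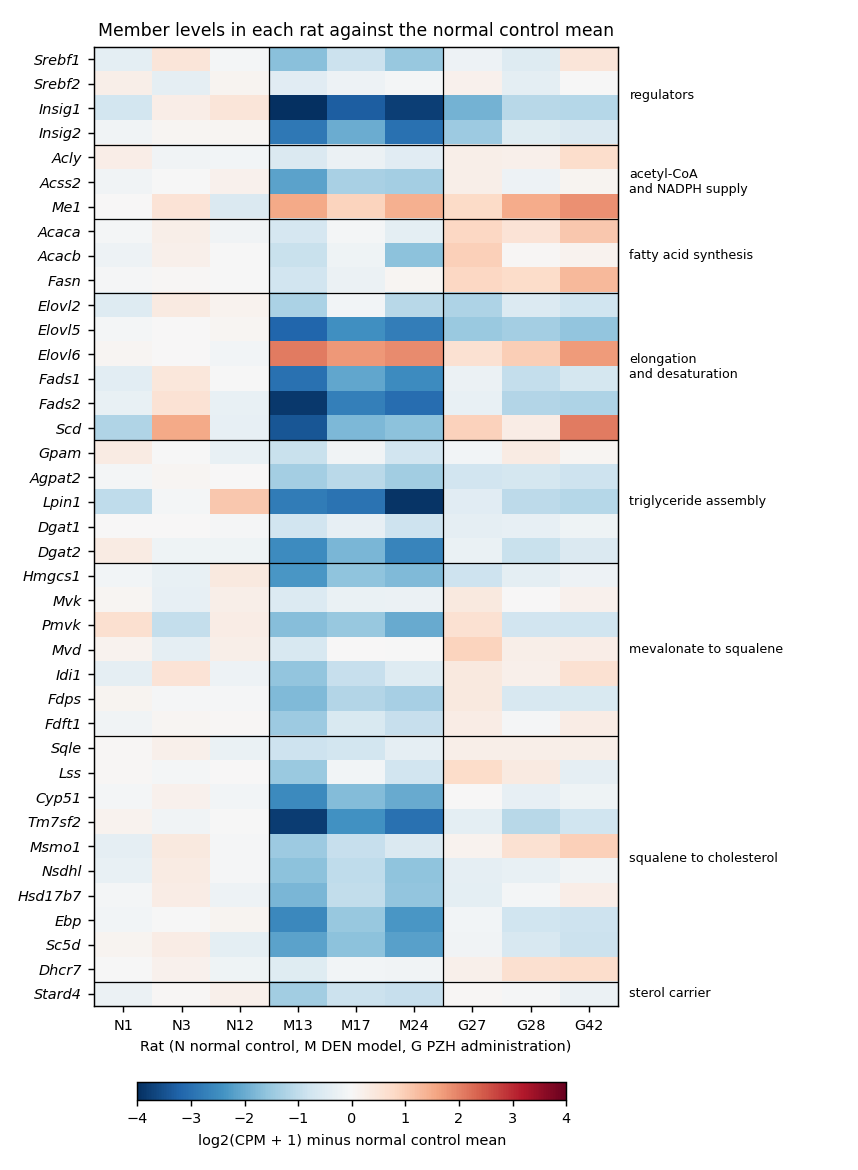
Level of each of the 39 genes in each rat as log2(CPM + 1) minus the mean of the normal control rats, on a blue to red scale, with genes grouped by role. The M13, M17 and M24 columns are mostly blue, Me1 and Elovl6 are red there, and the G27, G28 and G42 columns are pale in most lines.

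Summed markers of hepatocytes, bile duct cells, stellate cells with myofibroblasts, and lymphocytes did not overlap between DEN model liver and either other group. Endothelial cell sums in DEN model liver lay below those of normal control liver and overlapped those of PZH administration liver. The summed level of 8 hepatocyte markers was 159256 to 169303 CPM in normal control, 32449 to 75248 CPM in DEN model and 128643 to 169320 CPM in PZH administration liver, and M17 was the highest DEN model rat. Alb, Ttr, Apoh and Hnf4a, 4 of the 8, were called lower in DEN model liver, as were 20.5% of all genes, and 0 were called higher. The share called in either direction, 50%, was close to the 45.8% of all genes. Over the 8 markers the middle value was -1.58 on the log2 scale. The 6 bile duct cell markers summed to 13.4 to 21.1, 235 to 756 and 80.9 to 108 CPM in the same order. The 7 stellate cell and myofibroblast markers summed to 192 to 302, 1003 to 3118 and 585 to 706 CPM. Sums of the 6 macrophage markers overlapped between all groups, at 428 to 836, 396 to 531 and 223 to 516 CPM, but the single markers did not move together. In DEN model liver 2 were called lower, as were 20.5% of all genes, and 3 of the 6 log2 fold changes were above 0, from -2.72 to 0.57. In PZH administration against DEN model liver 3 were called lower, as were 10.3% of all genes, and 2 of the 6 were above 0. The 4 endothelial cell markers summed to 327 to 392, 160 to 321 and 261 to 380 CPM, and the 5 lymphocyte markers to 3.02 to 3.74, 5.55 to 23.0 and 1.07 to 4.66 CPM. Of the endothelial cell markers, 1 was called higher and 2 lower in DEN model liver, where 25.3% and 20.5% of all genes were. The part of cell types in the changes of the lipid synthesis genes was not tested, and in whole liver fewer hepatocytes and less RNA per hepatocyte cannot be told apart. The 5 adipocyte markers summed to 10.742 to 30.757 CPM in normal control, 21.188 to 33.956 CPM in DEN model and 10.398 to 13.996 CPM in PZH administration liver. Of these, Lep, Plin1 and Retn had no count in any rat, which allows at most 0.125 to 0.252 CPM (3 counts per library). Adipoq stayed at or below 0.552 CPM, so nearly all of each sum came from the remaining marker. The 1 adipocyte marker tested was called lower in PZH administration than in DEN model liver (log2 fold change -1.18). It was not called in DEN model (0.50) or PZH administration (-0.71) against normal control liver.

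**Figure D3:**
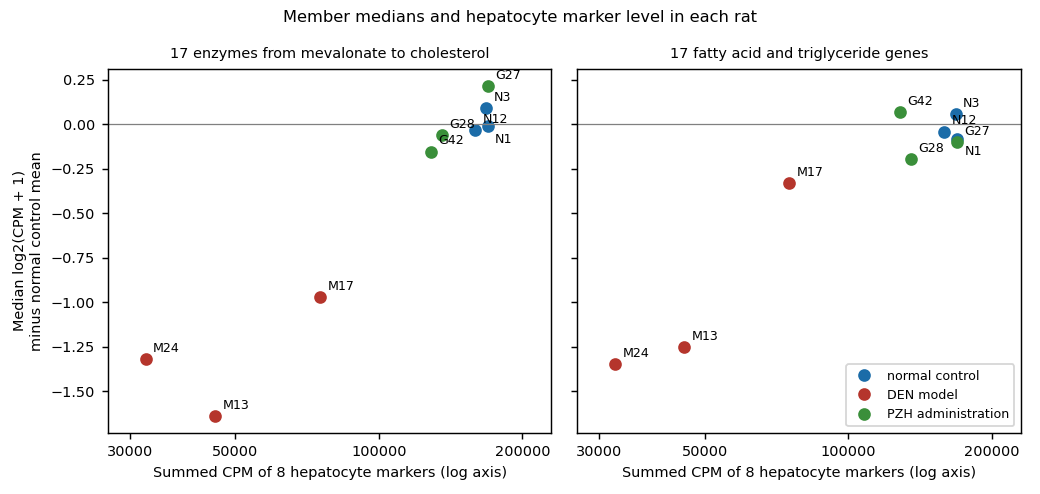
Median log2(CPM + 1) minus the normal control mean (vertical axis) against the summed CPM of 8 hepatocyte markers (horizontal, log axis) in each rat, for 17 enzymes from mevalonate to cholesterol (left) and 17 fatty acid and triglyceride genes (right). M13 and M24 lie low on both axes in both panels, and the PZH administration and normal control rats lie together at the upper right. M17 lies between them on the horizontal axis, and on the vertical axis at -0.97 on the left and at -0.33 on the right, where it is close to G28 (-0.20).

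In PZH administration liver 28 of the 39 genes were higher than in DEN model liver and 0 were lower, where 19.1% of all 14272 genes were called, 8.72% higher and 10.3% lower. No gene was lower at an unadjusted p under 0.05 or in DESeq2, while 34 were higher at that p and 32 in DESeq2. The median log2 fold change was 1.29 against 0.0053 over all genes, from -0.96 for Elovl6 to 3.41 for Scd. The groups did not overlap in 34 genes (87.2%, against 40.8% of all genes). By the study's thresholds 5 genes were higher, against 2.43% of all genes called (1.08% higher and 1.35% lower). This comparison uses the same DEN model rats as the one above, so a low value in those rats enters both.

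The number of calls depended on which rat was left out, while the fold changes moved less. The count was 6 without M13, 15 without M24 and 32 without M17, and 20, 21 and 28 without G42, G28 and G27. The median log2 fold change of the 39 genes was 1.16 without M13, 1.28 without M24 and 1.51 without M17, against 1.29 with all rats, and 37 of the 39 were above 0 in each of these fits. The counts of all genes called also moved, to 271 without M13 and 725 without M24. The 6 genes still called without M13 were Acss2, Cyp51, Fads2, Insig1, Lpin1 and Tm7sf2. Without M24 the calls of Acaca, Acly, Dhcr7, Ebp, Fdft1, Fdps, Hsd17b7, Insig2, Nsdhl, Pmvk, Sc5d, Srebf1 and Stard4 were lost, without G28 those of Acly, Dhcr7, Fdps, Insig2, Nsdhl, Sqle and Stard4, and without G42 those of Acly, Dhcr7, Fasn, Fdft1, Fdps, Idi1, Nsdhl and Srebf1. With library totals 17 genes were higher and Elovl6 was lower, and Acaca, Acly, Dhcr7, Fasn, Fdft1, Fdps, Idi1, Nsdhl, Sqle, Srebf1 and Stard4 lost their call. The 8 hepatocyte markers had a median log2 fold change of 1.13 in this comparison. Of these, 3 (Ttr, Apoh and Hnf4a) were called higher, as were 8.72% of all genes.

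At an adjusted p under 0.05, PZH administration liver differed from normal control liver in few of these genes. Fasn was higher, Elovl5 and Agpat2 were lower and 36 genes did not pass, where 5.21% of all 13348 genes were called, 4.07% higher and 1.15% lower. No gene of the 39 passed the study's thresholds, as 2.32% of all genes did (2.16% higher and 0.165% lower), and edgeR's own calls numbered 3. At an unadjusted p under 0.05 in edgeR's test, 5 of the 39 genes were higher and 10 were lower. The median log2 fold change was -0.071 against -0.020 over all genes, and the groups did not overlap in 16 of the 39 (41.0%, against 24.2% of all genes). None of the 17 enzymes from mevalonate to cholesterol was called by edgeR, 1 being higher and 2 lower at an unadjusted p under 0.05, and DESeq2 called 1, Tm7sf2, lower. DESeq2 called 4 of the 39 genes higher (Acaca, Elovl6 and Me1 beside Fasn) and 5 lower (Elovl2, Insig1 and Tm7sf2 beside Elovl5 and Agpat2). A gene that did not pass is not shown to be equal in these groups.

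**Figure D4:**
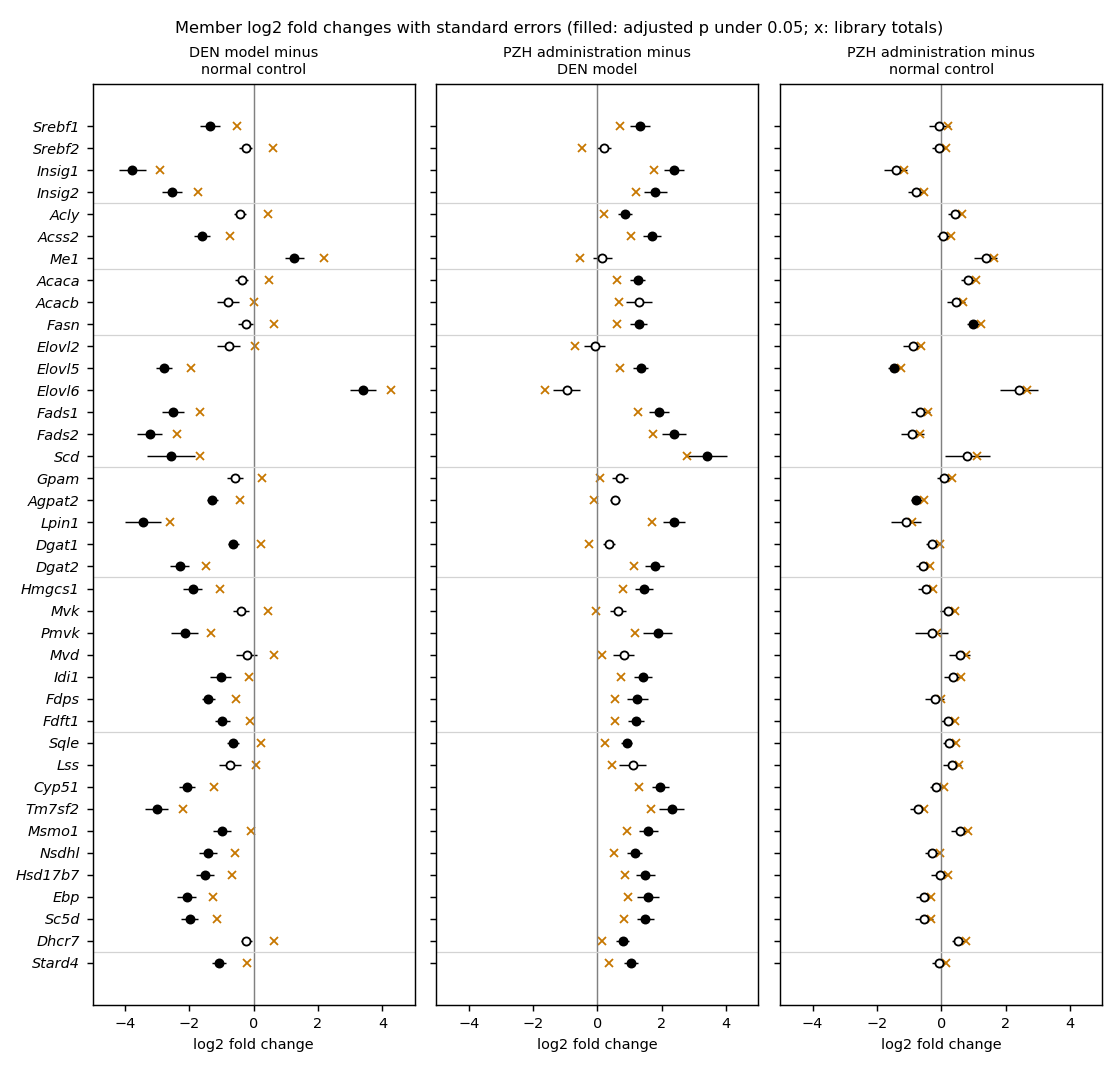
Log2 fold changes with standard errors for the 39 genes in the 3 comparisons, filled where the adjusted p was under 0.05. Orange crosses show the same values scaled by library totals, which lie to the right of the circles for DEN model minus normal control and to the left for PZH administration minus DEN model.

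Among the regulators, Insig1 changed most. In each trio of values the rats stand in the order N1, N3, N12, then M13, M17, M24, then G27, G28, G42. Insig1, whose product retains the SREBP precursors, measured 508, 1015 and 1173 CPM in the normal control rats, 49.0, 85.9 and 61.9 CPM in the DEN model rats and 229.6, 395 and 382 CPM in the PZH administration rats. All DEN model rats lay below all PZH administration rats, which in turn lay below all normal control rats. Insig1 fell by 3.77 ± 0.41 log2 units (SE) in DEN model liver (edgeR adjusted p = 0.000329), and rose by 2.37 ± 0.31 log2 units (SE) in PZH administration against DEN model liver (edgeR adjusted p = 0.00858). Against normal control liver its log2 fold change was -1.42 ± 0.35 (SE, edgeR adjusted p = 0.0534), just outside the threshold, and DESeq2 called it lower.

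Insig2, the second retention protein and by FPKM the highest of the 39 genes in normal control liver (290.3 FPKM, mean of 3 rats), measured 339, 388 and 388 CPM in the normal control rats, 50.7, 92.6 and 46.3 CPM in the DEN model rats and 136, 264 and 247 CPM in the PZH administration rats. Its groups kept the same order without overlap. It fell by 2.54 ± 0.31 log2 units (SE) in DEN model liver (edgeR adjusted p = 0.000503), and rose by 1.79 ± 0.35 log2 units (SE) in PZH administration against DEN model liver (edgeR adjusted p = 0.0164). Srebf1 measured 113, 206 and 139.8 CPM in the normal control rats, 46.2, 80.7 and 50.7 CPM in the DEN model rats and 128, 104 and 207 CPM in the PZH administration rats. Every DEN model rat was below every rat of the other groups, while G27, G28 and G42 spread across the normal control range. Srebf1 fell by 1.36 ± 0.30 log2 units (SE) in DEN model liver (edgeR adjusted p = 0.00717) and rose by 1.32 ± 0.32 log2 units (SE) in PZH administration against DEN model liver (edgeR adjusted p = 0.0268), and with library totals neither call held.

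Srebf2, the regulator of the cholesterol genes, measured 76.1, 50.02 and 68.9 CPM in the normal control rats, 46.6, 55.3 and 61.1 CPM in the DEN model rats and 72.4, 48.7 and 63.1 CPM in the PZH administration rats. Its 3 groups overlapped. The log2 fold change was -0.24 ± 0.20 (SE, edgeR adjusted p = 0.353) in DEN model against normal control liver and 0.20 ± 0.21 (SE, edgeR adjusted p = 0.525) in PZH administration against DEN model liver, and with library totals the signs turned, to 0.61 and -0.48. Its change was not tested against that of the enzymes it is known to regulate.

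**Figure D5:**
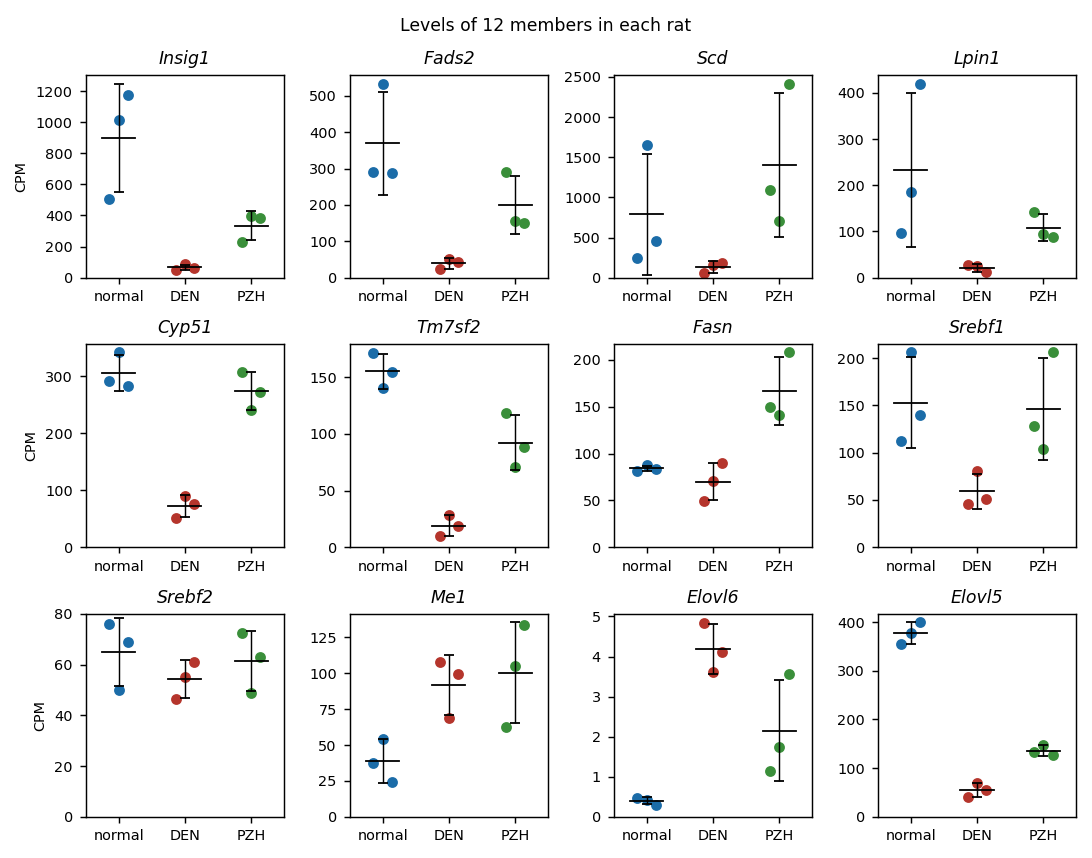
CPM of 12 genes in each rat (points; blue normal control, red DEN model, green PZH administration), with the group mean as a line and its SD as a bar, n = 3 rats per group; each axis starts at 0. Insig1, Fads2, Scd, Lpin1, Cyp51, Tm7sf2, Srebf1 and Elovl5 are lowest in DEN model rats, while Me1 and Elovl6 are lowest in normal control rats.

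The suppliers of acetyl-CoA and NADPH did not move together. Acly, ATP citrate lyase, measured 146, 109.8 and 113 CPM in the normal control rats, 81.7, 103 and 89.0 CPM in the DEN model rats and 145, 141 and 201 CPM in the PZH administration rats. M13, M17 and M24 were the lowest 3 rats without overlap, but the differences were small. Its log2 fold change in DEN model liver, -0.41 ± 0.19 (SE, edgeR adjusted p = 0.106), did not pass and was 0.43 with library totals, while Acly rose by 0.85 ± 0.21 log2 units (SE) in PZH administration against DEN model liver (edgeR adjusted p = 0.0291), a call lost under that scaling. Acss2, which makes acetyl-CoA from acetate, fell by 1.60 on the log2 scale in DEN model liver (edgeR adjusted p = 0.00165) and was 1.70 higher in PZH administration than in DEN model liver (edgeR adjusted p = 0.0108), a call kept without M13.

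Me1, malic enzyme, a cytosolic source of NADPH, went the other way and measured 37.3, 54.5 and 24.1 CPM in the normal control rats, 108, 68.5 and 99.6 CPM in the DEN model rats and 62.9, 105 and 133 CPM in the PZH administration rats. All 6 DEN-injected rats were above all 3 normal control rats, and M17 was the lowest DEN model rat. Me1 rose by 1.27 ± 0.31 log2 units (SE) in DEN model liver (edgeR adjusted p = 0.0100). Its log2 fold changes were 0.15 ± 0.30 (SE, edgeR adjusted p = 0.758) for PZH administration minus DEN model and 1.37 ± 0.36 (SE, edgeR adjusted p = 0.0671) for PZH administration minus normal control, neither of which passed. The former turned to -0.53 with library totals, and DESeq2 called the latter higher.

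At the committed steps of fatty acid synthesis, Fasn and Acaca were higher in PZH administration than in DEN model liver, calls that did not hold with library totals. None of Acaca, Acacb and Fasn was called by edgeR in DEN model against normal control liver, with 1 (Acacb) lower at an unadjusted p under 0.05 and 0 called by DESeq2. Fasn, fatty acid synthase, measured 81.6, 87.4 and 83.6 CPM in the normal control rats, 49.6, 70.9 and 89.6 CPM in the DEN model rats and 150.1, 142 and 209 CPM in the PZH administration rats. M13, M17 and M24 spanned the narrow normal control range, whereas G27, G28 and G42 were all above the other 6 rats. Fasn had a log2 fold change of -0.25 ± 0.23 (SE, edgeR adjusted p = 0.397) in DEN model liver, which library totals turned to 0.62. It rose by 1.27 ± 0.27 log2 units (SE) in PZH administration against DEN model liver (edgeR adjusted p = 0.0191). Against normal control liver Fasn rose by 0.99 ± 0.21 log2 units (SE) (edgeR adjusted p = 0.0307), a call lost on leaving out N1, N3, N12, G28 or G42, while the log2 fold change stayed between 0.79 and 1.10.

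Acaca, the acetyl-CoA carboxylase that makes malonyl-CoA for synthesis, measured 43.7, 54.0 and 41.4 CPM in the normal control rats, 28.2, 43.1 and 35.0 CPM in the DEN model rats and 81.9, 67.6 and 99.3 CPM in the PZH administration rats. G27, G28 and G42 were again the highest 3 rats, and the DEN model rats overlapped the normal control rats. Its log2 fold change was -0.37 ± 0.20 (SE, edgeR adjusted p = 0.170) in DEN model liver, and 0.48 with library totals. Acaca rose by 1.25 ± 0.22 log2 units (SE) in PZH administration against DEN model liver (edgeR adjusted p = 0.0137), and against normal control liver the value was 0.84 ± 0.22 (SE, edgeR adjusted p = 0.0650). Acacb, the mitochondrial carboxylase whose malonyl-CoA restrains fatty acid oxidation, had log2 fold changes of -0.80, 1.29 and 0.44 in the 3 comparisons (DEN model minus normal control, PZH administration minus DEN model, PZH administration minus normal control) and passed edgeR's test in none with all rats. DESeq2 called it higher in the second, and without M17 edgeR called it in the first (-1.25) and the second (1.72).

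Desaturases were among the genes that changed most. Scd, the stearoyl-CoA desaturase that makes oleate, measured 251, 1654 and 461 CPM in the normal control rats, 53.0, 163 and 183 CPM in the DEN model rats and 1088, 703 and 2410.0 CPM in the PZH administration rats. All others lay above the DEN model rats, and the normal control and PZH administration rats varied widely within each group. Scd fell by 2.56 ± 0.74 log2 units (SE) in DEN model liver (edgeR adjusted p = 0.0212), a call lost without M13 or without N3, when the log2 fold change was -1.41. It rose by 3.41 ± 0.62 log2 units (SE) in PZH administration against DEN model liver (edgeR adjusted p = 0.0139), the highest of the 39 fold changes in this comparison. The call was lost without M13, and without G42 the value was 2.79. Scd lies near its close paralog Scd2 on chromosome 1, and how shared reads were assigned is not given in the sources used here, so the split of counts between them is uncertain.

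Fads2, the first desaturase on the way to long polyunsaturated fatty acids, measured 289.8, 533 and 287 CPM in the normal control rats, 23.3, 51.9 and 42.04 CPM in the DEN model rats and 291, 156 and 151 CPM in the PZH administration rats. M13, M17 and M24 lay far below both other groups, and G27 matched the lower normal control rats while G28 and G42 did not reach them. Fads2 fell by 3.23 ± 0.39 log2 units (SE) in DEN model liver (edgeR adjusted p = 0.000509) and rose by 2.38 ± 0.38 log2 units (SE) in PZH administration against DEN model liver (edgeR adjusted p = 0.0113). Fads1, the next desaturase of that route, fell by 2.52 (edgeR adjusted p = 0.000803) and rose by 1.91 (edgeR adjusted p = 0.0116) on the log2 scale in the same comparisons.

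The 3 elongases differed from each other. Elovl5, which lengthens polyunsaturated fatty acids, measured 356, 377 and 399.5 CPM in the normal control rats, 40.5, 68.5 and 54.6 CPM in the DEN model rats and 133, 148 and 126 CPM in the PZH administration rats. The groups were separate and in the order DEN model, PZH administration, normal control. Elovl5 fell by 2.77 ± 0.25 log2 units (SE) in DEN model liver (edgeR adjusted p = 0.000176) and rose by 1.34 ± 0.23 log2 units (SE) in PZH administration against DEN model liver (edgeR adjusted p = 0.0126). It remained below normal control liver in PZH administration liver, where it fell by 1.47 ± 0.18 log2 units (SE) (edgeR adjusted p = 0.00485), and this call was kept on leaving out each of the 6 rats in turn. Elovl2, which acts on longer polyunsaturated chains, had log2 fold changes of -0.77, -0.091 and -0.90 in the 3 comparisons and passed edgeR's test in none with all rats. DESeq2 called it lower in PZH administration than in normal control liver (-0.89), and without M17 edgeR called it lower in DEN model liver (-1.24).

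Elovl6, the elongase of palmitate, measured 0.469, 0.420 and 0.305 CPM in the normal control rats, 4.84, 3.62 and 4.12 CPM in the DEN model rats and 1.15, 1.74 and 3.56 CPM in the PZH administration rats. The normal control values rest on 4 to 6 counts per library and the DEN model values on 73 to 114 counts. Every DEN model rat was above every other rat, and every PZH administration rat was above every normal control rat. Elovl6 rose by 3.40 ± 0.40 log2 units (SE) in DEN model liver (edgeR adjusted p = 0.000432). Its other log2 fold changes were -0.96 ± 0.43 (SE, edgeR adjusted p = 0.154) against DEN model liver and 2.40 ± 0.59 (SE, edgeR adjusted p = 0.0518) against normal control liver.

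In triglyceride assembly the fall in DEN model liver covered 4 of 5 genes, beside 20.5% of all genes. Lpin1, a phosphatidate phosphatase that also acts as a transcriptional coactivator, measured 97.0, 185 and 419 CPM in the normal control rats, 27.5, 24.7 and 12.1 CPM in the DEN model rats and 142, 94.9 and 87.7 CPM in the PZH administration rats. The normal control rats differed by severalfold among themselves, yet the lowest of them was above all DEN model rats. Lpin1 fell by 3.44 ± 0.56 log2 units (SE) in DEN model liver (edgeR adjusted p = 0.00178) and rose by 2.36 ± 0.34 log2 units (SE) in PZH administration against DEN model liver (edgeR adjusted p = 0.00930), and without N12 its log2 fold change in DEN model liver was -2.71. Dgat2, an acyltransferase of the last step, fell by 2.30 (edgeR adjusted p = 0.000606) and rose by 1.77 (edgeR adjusted p = 0.0116) on the log2 scale. Dgat1, the other enzyme of that step, fell by 0.62 (edgeR adjusted p = 0.0217), a call lost with library totals, where the value was 0.22, and did not pass in PZH administration against DEN model liver (0.37).

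Agpat2, which makes phosphatidate, measured 71.7, 81.2 and 76.3 CPM in the normal control rats, 29.4, 35.3 and 28.8 CPM in the DEN model rats and 44.9, 46.5 and 42.5 CPM in the PZH administration rats. The groups were separate, with PZH administration rats between the others. Agpat2 fell by 1.28 ± 0.16 log2 units (SE) in DEN model liver (edgeR adjusted p = 0.000624), and stood at 0.54 ± 0.16 (SE, edgeR adjusted p = 0.0510) against DEN model liver, where DESeq2 and, without M17, edgeR called it higher. Against normal control liver it fell by 0.77 ± 0.17 log2 units (SE) (edgeR adjusted p = 0.0376), a call that was lost on leaving out any rat other than G27, while the log2 fold change stayed between -0.84 and -0.71. Gpam, the mitochondrial enzyme of the first acylation, had log2 fold changes of -0.57, 0.70 and 0.091 in the 3 comparisons and passed edgeR's test in none with all rats. DESeq2 called Gpam higher in PZH administration than in DEN model liver (0.71), and without M17 edgeR called it lower in DEN model liver (-0.85) and higher in PZH administration than in DEN model liver (0.96).

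From mevalonate to squalene 5 of 7 genes fell in DEN model liver and the same number rose in PZH administration against DEN model liver, where 20.5% and 8.72% of all genes did so. Hmgcs1, the cytosolic HMG-CoA synthase, measured 446, 391 and 623 CPM in the normal control rats, 93.6, 157 and 139.6 CPM in the DEN model rats and 271, 359.9 and 415 CPM in the PZH administration rats. Both other groups lay above the DEN model rats, and of the PZH administration rats G42 alone reached the normal control range. Hmgcs1 fell by 1.89 ± 0.29 log2 units (SE) in DEN model liver (edgeR adjusted p = 0.00145) and rose by 1.44 ± 0.27 log2 units (SE) in PZH administration against DEN model liver (edgeR adjusted p = 0.0146). Pmvk, phosphomevalonate kinase, had the lowest fold change of this stage in DEN model liver at -2.14 ± 0.42 (SE, edgeR adjusted p = 0.00391), although its normal control values ran from 6.46 to 21.4 CPM. Idi1 is an isomerase of isoprenoid units, and Fdps and Fdft1 make farnesyl diphosphate and squalene. Their log2 fold changes were -1.02, -1.40 and -0.97 in DEN model liver and 1.42, 1.24 and 1.20 in PZH administration against DEN model liver. All of these values passed. Pmvk rose by 1.86 log2 units (edgeR adjusted p = 0.0289) in the latter comparison, and by 1.15 without G27. Mvk and Mvd, a kinase and a decarboxylase of mevalonate, passed edgeR's test in no comparison, with -0.40 and -0.21 in DEN model liver, and their levels were at most 11.01 CPM in any rat.

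From squalene to cholesterol 8 of 10 genes fell in DEN model liver and 9 of 10 rose in PZH administration against DEN model liver, again beside 20.5% and 8.72% of all genes. Sqle, squalene epoxidase, a rate-limiting step of the later pathway, measured 47.6, 52.6 and 38.2 CPM in the normal control rats, 25.2, 27.4 and 35.2 CPM in the DEN model rats and 54.4, 54.1 and 53.5 CPM in the PZH administration rats. The DEN model rats were the lowest, with M24 close below the lowest normal control rat, and the 3 PZH administration rats were nearly alike and above all others. Sqle fell by 0.64 ± 0.20 log2 units (SE) in DEN model liver (edgeR adjusted p = 0.0270), and rose by 0.91 ± 0.18 log2 units (SE) in PZH administration against DEN model liver (edgeR adjusted p = 0.0164). Both calls were lost with library totals, and under that scaling the DEN model value turned to 0.24.

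Tm7sf2, a sterol reductase that acts after lanosterol, measured 171, 140.5 and 154 CPM in the normal control rats, 10.2, 28.3 and 18.7 CPM in the DEN model rats and 118, 70.6 and 88.4 CPM in the PZH administration rats. The groups were separate, and G27, G28 and G42 lay between DEN model and normal control rats. Tm7sf2 fell by 3.01 ± 0.35 log2 units (SE) in DEN model liver (edgeR adjusted p = 0.000414) and rose by 2.30 ± 0.38 log2 units (SE) in PZH administration against DEN model liver (edgeR adjusted p = 0.0116). Cyp51, the lanosterol demethylase, fell by 2.07 ± 0.26 (edgeR adjusted p = 0.000575) and rose by 1.95 ± 0.26 (edgeR adjusted p = 0.00891) on the log2 scale, and at -0.16 its PZH administration level overlapped the normal control level.

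Nsdhl, a sterol dehydrogenase that takes part in removing the methyl groups of lanosterol, measured 271, 420.0 and 326 CPM in the normal control rats, 106, 163 and 109.6 CPM in the DEN model rats and 257, 273 and 299.6 CPM in the PZH administration rats. The DEN model rats were below all others and the PZH administration rats reached into the normal control range. Nsdhl fell by 1.41 ± 0.27 log2 units (SE) in DEN model liver (edgeR adjusted p = 0.00375) and rose by 1.15 ± 0.23 log2 units (SE) in PZH administration against DEN model liver (edgeR adjusted p = 0.0170). Its partners Msmo1 and Hsd17b7 had log2 fold changes of -0.97 and -1.51 in DEN model liver and 1.58 and 1.49 in PZH administration against DEN model liver. Ebp and Sc5d, an isomerase and a desaturase of the sterol ring, fell by 2.08 and 1.99 and rose by 1.57 and 1.49 on the log2 scale, all 8 of these values passing the test.

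Dhcr7, the reductase of the last step to cholesterol, measured 86.2, 98.5 and 77.4 CPM in the normal control rats, 62.1, 80.9 and 79.5 CPM in the DEN model rats and 101, 136 and 141 CPM in the PZH administration rats. The DEN model rats overlapped the normal control rats, and all PZH administration rats were the highest. Its DEN model value was -0.22 ± 0.19 (SE, edgeR adjusted p = 0.361), and with library totals it turned to 0.64 and was called higher. Dhcr7 rose by 0.79 ± 0.21 log2 units (SE) in PZH administration against DEN model liver (edgeR adjusted p = 0.0339), a call lost with library totals. Lss, which closes the sterol ring, did not pass edgeR's test with all rats in DEN model liver (-0.72) or in PZH administration against DEN model liver (1.09). DESeq2 called the latter difference (1.10), and without M17 edgeR called both (-1.16 and 1.51). M17 (17.7 CPM) lay close to the normal control rats (18.5 to 20.2 CPM) while M13 was at 6.20 CPM.

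Stard4, a carrier of free sterol between membranes, measured 30.9, 37.5 and 42.1 CPM in the normal control rats, 13.3, 19.8 and 18.9 CPM in the DEN model rats and 37.9, 35.6 and 30.9 CPM in the PZH administration rats. Both other groups lay above M13, M17 and M24 and overlapped each other. Stard4 fell by 1.08 ± 0.22 log2 units (SE) in DEN model liver (edgeR adjusted p = 0.00453) and rose by 1.03 ± 0.21 log2 units (SE) in PZH administration against DEN model liver (edgeR adjusted p = 0.0170), and both calls were lost with library totals.

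Rats of the DEN model group were not alike in these genes. M17 was above the mean of the DEN model rats in 16 of the 17 enzymes from mevalonate to cholesterol and in 15 of the 17 fatty acid and triglyceride genes, whereas M13 was above it in 1 and 4. The median of the sterol enzymes relative to normal control liver, as a difference of log2(CPM + 1), was -1.64 in M13, -0.97 in M17 and -1.32 in M24, and that of the fatty acid and triglyceride genes was -1.25, -0.33 and -1.35. The corresponding sterol medians in G27, G28 and G42 were 0.22, -0.064 and -0.15. M17 was also the DEN model rat with the highest hepatocyte markers, and the part of this in its lipid synthesis levels was not tested.

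Other genes of the pathways, 36 in all of which 32 were tested, gave a mixed result. Of 10 further sterol genes, 4 fell and 1 rose in DEN model liver, so that 5 of 10 were called, where 45.8% of all genes were. In PZH administration against DEN model liver 5 rose and 1 fell, where 19.1% of all genes were called. Soat1, which esterifies cholesterol, was the 1 gene that went the other way in each: it rose by 2.64 ± 0.36 log2 units (SE) in DEN model liver (edgeR adjusted p = 0.000836), and fell by 1.96 ± 0.36 log2 units (SE) in PZH administration against DEN model liver (edgeR adjusted p = 0.0144).

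Of 22 further fatty acid and triglyceride genes, 11 fell and 4 rose in DEN model liver (68.2% called against 45.8% of all genes), and 7 rose and 1 fell in PZH administration against DEN model liver (36.4% against 19.1%). Thrsp, a lipogenic nuclear protein, fell by 2.87 ± 0.52 log2 units (SE) in DEN model liver (edgeR adjusted p = 0.00290) and rose by 3.03 ± 0.62 log2 units (SE) in PZH administration against DEN model liver (edgeR adjusted p = 0.0172). Others below -1 in DEN model liver were Hsd17b12 (-1.26) and Tecr (-1.40) of the elongation cycle, the citrate carrier Slc25a1 (-1.39), the lipid droplet genes Plin2 (-1.23) and Cidec (-1.64), the liver X receptor Nr1h3 (-1.33) and the acyl-CoA synthetase Acsl5 (-1.37). Scd2, the paralog of Scd, rose by 3.38 ± 0.38 log2 units (SE) in DEN model liver (edgeR adjusted p = 0.000384), and was also higher in PZH administration than in normal control liver (2.13). Elovl7, another elongase, measured 0, 0.168 and 0.229 CPM in the normal control rats, 18.3, 12.5 and 22.5 CPM in the DEN model rats and 1.96, 4.73 and 5.63 CPM in the PZH administration rats, the normal control values resting on 0 to 3 counts, so no fold is given. Gpat3, an acyltransferase, was higher in DEN model liver (1.76), and Pnpla3, a lipase of lipid droplets, was higher in PZH administration than in DEN model liver (2.06). All of these passed edgeR's test.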

How the data were processed

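Total liver mRNA of 9 rats was sequenced on an Illumina NovaSeq by the authors, who deposited 1 table with a count and an FPKM column for each rat. The counts are whole numbers of reads per gene, not normalized; the FPKM values were made by the authors by dividing by transcript length and library size. The submitters' processing notes name fastp, HISAT2 2.1.0, StringTie 1.3.3b and edgeR 3.30.3 without their roles, and the genome build, annotation, counting rule and strandedness are not given in the sources used here. The table also holds the authors' own fold changes and significance values for each pair of groups, which were not used.

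Counts were tested in R 4.3.3 with edgeR 4.0.16 (filterByExpr, TMM, quasi-likelihood test), fitting the 6 rats of a comparison at a time, with Benjamini-Hochberg adjustment over all genes tested and calls at an adjusted p under 0.05. Standard errors were derived from the log2 fold change and its F value. Alternatives were DESeq2 1.42.0, library totals, limma 3.58.1 on log2(FPKM + 1), other filters and thresholds, 1 fit over all groups and leaving out each rat. The scripts were tested on simulated counts with 200 changed genes and a fixed spread that was not fitted to these data. At a simulated log2 fold change of 2 the main fit found 195, 197 and 193 of them in the 3 comparisons. At a simulated log2 fold change of 1 it found 3, 7 and 18, so a gene that did not pass may still differ. An exact permutation test of 3 against 3 rats cannot go below p = 0.1, so none is given. Values per rat were printed for the regulators, the main enzymes of each route and, in each comparison, the 5 highest and 5 lowest called fold changes; further pathway genes were named where called with an absolute log2 fold change above 1, and some of these are not reported here. The genes, lists and thresholds were chosen with earlier results of these data known, and the genes in the plot of 12 levels and the promoters shown after their values were seen. Counts of 3 per library were taken as the floor for genes at 0, and floors cover counting error only. Promoter sequences came from RefSeq (GRCr8) and no coordinate of the expression table was used with them.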

Additional observations from a re-analysis of the deposited data

How the results depend on the processing

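The 26 genes lower in DEN model liver numbered 18 to 28 under every alternative with the same threshold, and at the study's thresholds 11 were lower and 1 higher, with 1753 of all genes called. A minimum of 10 counts in every rat removed Elovl6, which left 1 gene higher. The median log2 fold change of the 39 genes was -0.42 with library totals and with limma on log2(FPKM + 1), which corrects for no shift in composition, and library totals gave 4 genes higher. Log2 fold changes that turned positive with library totals were Srebf2 0.61, Acly 0.43, Acaca 0.48, Acacb 0.0081, Fasn 0.62, Elovl2 0.052, Gpam 0.25, Dgat1 0.22, Mvk 0.46, Mvd 0.63, Sqle 0.24, Lss 0.090 and Dhcr7 0.64, and with limma Srebf2 0.57, Acly 0.42, Acaca 0.40, Fasn 0.51, Elovl2 0.038, Gpam 0.25, Dgat1 0.20, Mvk 0.40, Mvd 0.47, Sqle 0.20, Lss 0.023 and Dhcr7 0.60.

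For PZH administration minus DEN model, library totals gave 17 genes higher, 1 lower, a median of 0.66 and 6252 of all genes called, and limma gave 16, 1, 0.59 and 6089. The study's thresholds, applied to the edgeR fit used here, gave 5 genes higher and 347 of all genes. The study itself reported more genes for this comparison and for DEN model minus normal control. Values that turned negative with library totals were Srebf2 -0.48, Me1 -0.53, Agpat2 -0.11, Dgat1 -0.27 and Mvk -0.038, and with limma Srebf2 -0.43, Me1 -0.53, Agpat2 -0.11, Dgat1 -0.26 and Mvk -0.026. Leaving out each rat gave 6 to 32 genes higher and 271 to 3319 of all genes called, lowest without M13, with medians of 1.16 to 1.51.

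For PZH administration minus normal control, 4 genes were higher and 5 lower with DESeq2 (1320 of all genes called), 4 and 1 with library totals and with limma (medians 0.15 and 0.14), 4 higher with all groups in 1 fit, 2 higher with no filter, 1 lower with at least 10 counts in every rat (340 of all genes), 0 and 1 with an added absolute log2 fold change above 1, and 0 and 0 at the study's thresholds (310 of all genes). Values that turned positive with library totals were Srebf1 0.19, Srebf2 0.14, Fdps 0.00031, Cyp51 0.076, Hsd17b7 0.19 and Stard4 0.15, and with limma Srebf1 0.15, Srebf2 0.14, Cyp51 0.071, Hsd17b7 0.15 and Stard4 0.14. Leaving out each rat gave 0 to 3 genes higher, 1 to 5 lower and 207 to 1326 of all genes called, the most without G27 and the fewest without N1.

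Over the rats left out, log2 fold changes crossed 0 in -0.40 to 0.010 for Mvd (DEN model minus normal control), -0.30 to 0.36 for Elovl2 and -0.090 to 0.40 for Me1 (PZH administration minus DEN model), and -0.046 to 0.18 for Acss2, -1.02 to 0.020 for Pmvk, -0.41 to 0.24 for Srebf1, -0.22 to 0.072 for Srebf2, -0.24 to 0.13 for Hsd17b7, -0.061 to 0.23 for Gpam and -0.22 to 0.0058 for Stard4 (PZH administration minus normal control). Apart from the scalings, whose medians over all genes differ by construction, the cause of these moves was not tested. No paired analysis was possible because the rat numbers of the 3 groups share no number. Counts under 10 limit Elovl6 in normal control rats, and 3 rats per group limit every call.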
